A study of Mus musculus with 17 samples.

Results

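The enzymes that carry glucose carbon to pyruvate, lactate and the citrate cycle were followed in the mouse hypothalamus, the brain region that senses fuel and sets appetite and hormone output. The list held 34 genes, and its members were all probe sets on the array with 1 of these genes as their only gene symbol. That gave 63 of 22690 probe sets, for 32 of the 34 genes. Gpi1 and Eno1 had no such probe set and are not analysed here. Gapdh was represented by 3 control probe sets of the array, which were kept out of the model. A further 2 probe sets, of Pdhb and Mdh1, were too dim to be tested (mean signals of 412 to 434 and of 101 to 119 in the 3 groups), which left 58 probe sets of 31 genes.

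RNA came from 17 hypothalami of male C57Bl/6 mice aged 9 weeks, with 1 Affymetrix array each. The 6 control mice were wildtype and were injected intraperitoneally with vehicle. The 6 STZ mice were wildtype and received 1 intraperitoneal injection of streptozotocin, which destroys pancreatic beta cells and so removes most insulin, at 200 µg per g body weight. The 5 ob/ob mice carry the mutation that removes the hormone leptin from the whole body, and the labels name no injection for them beyond the protocol text that all samples share. The labels give neither glucose or insulin values nor the time between injection and dissection.

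Glycolysis splits a hexose into trioses and oxidises them to pyruvate. Pyruvate is either reduced to lactate by lactate dehydrogenase or enters mitochondria, where the pyruvate dehydrogenase complex turns it into acetyl-CoA for the citrate cycle. The adult brain runs chiefly on glucose, with neurons oxidising much of it and astrocytes releasing part of it as lactate. The genes were described in 5 sections: the hexose phase (hexokinase to triose phosphate isomerase), the triose phase (Gapdh to pyruvate kinase), lactate dehydrogenase, pyruvate dehydrogenase with its kinases, and the citrate cycle.

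Several glycolytic genes are known targets of hypoxia-inducible factor, whose binding sites contain the letters ACGTG. RefSeq promoter windows of build GRCm38.p6, from 250 bases before to 50 after a start site, were found for 33 of the 34 genes. These 50 windows were searched for ACGTG on both strands. The palindrome CACGTG holds 1 match on each strand. The letters were present in 44% of the members' windows, in 15 of 33 genes, against 19.6% of 32851 windows of all genes. The share of windows was 42.3% for the glycolysis and lactate genes and 45.8% for the pyruvate dehydrogenase and citrate cycle genes. Of the 22 windows with a match, 6 belonged to Ogdh, and these were 6 of the 11 in the second set. Counted by gene the order was the other way, with 9 of 16 genes in the first set and 6 of 17 in the second. Over all genes the count was 5886 of 27025. The members' windows also had a median of 21 CG dinucleotides against 7 for all windows, and a median GC content of 60% against 52.7%. The GC box, GGGCGG on either strand, was in 54% of the members' windows against 35.7% of all windows. A match is a run of letters and not a measured binding site. The 250 bases before the start are printed for 3 glycolytic genes with matches, one near each end of the pathway and one in its middle, and for the citrate cycle gene Suclg1, which has none. They lie at chr6:82774455-82774704 on the minus strand (Hk2), chr7:46845554-46845803 on the plus strand (Ldha), chrX:106186850-106187099 on the plus strand (Pgk1) and chr6:73248255-73248504 on the plus strand (Suclg1). Capitals mark the matches.
Hk2: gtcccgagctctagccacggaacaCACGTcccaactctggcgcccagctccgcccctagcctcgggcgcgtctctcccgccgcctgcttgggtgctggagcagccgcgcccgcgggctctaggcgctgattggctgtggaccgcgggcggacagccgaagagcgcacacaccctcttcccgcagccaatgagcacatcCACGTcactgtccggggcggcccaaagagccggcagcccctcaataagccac
Ldha: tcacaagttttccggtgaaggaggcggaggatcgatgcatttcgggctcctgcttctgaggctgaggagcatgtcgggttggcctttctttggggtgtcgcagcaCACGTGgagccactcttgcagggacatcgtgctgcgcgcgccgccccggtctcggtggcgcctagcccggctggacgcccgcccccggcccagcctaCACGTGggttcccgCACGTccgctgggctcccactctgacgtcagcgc
Pgk1: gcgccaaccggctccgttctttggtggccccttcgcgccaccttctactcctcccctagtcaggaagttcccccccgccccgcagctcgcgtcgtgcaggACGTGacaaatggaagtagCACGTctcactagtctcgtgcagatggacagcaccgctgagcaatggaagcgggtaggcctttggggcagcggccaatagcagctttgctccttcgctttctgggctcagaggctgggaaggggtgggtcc
Suclg1: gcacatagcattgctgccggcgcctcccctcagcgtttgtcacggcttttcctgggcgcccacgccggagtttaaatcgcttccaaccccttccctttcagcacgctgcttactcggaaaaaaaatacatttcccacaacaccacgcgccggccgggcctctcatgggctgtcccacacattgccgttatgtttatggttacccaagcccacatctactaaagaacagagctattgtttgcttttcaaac
The stretch of Ldha held 5 matches counted over both strands, 4 of them in 2 copies of CACGTG, and those of Hk2 and Pgk1 held 2 each. Ldha had 2 windows, and only 1 of them, the one printed, held the letters.

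No member probe set differed between any 2 of the 3 groups at an adjusted p under 0.05 in limma. Of all 13576 probe sets tested, 0.0516% were called for STZ against control, 0.125% for ob/ob against control and 0.0368% for ob/ob against STZ, so few calls were made anywhere on the array. At an unadjusted p under 0.05, 7 of the 58 member probe sets stood apart in STZ (2 higher and 5 lower), where 8.24% of all probe sets did (3.87% higher and 4.38% lower). In ob/ob the same number, 7, stood apart (5 higher and 2 lower), where 11.9% of all probe sets did (5.75% higher and 6.12% lower). For ob/ob against STZ the count was 0, where 3.93% of all probe sets did (1.93% higher and 2% lower). The count of 7 is 12.1% of the member probe sets, above the background share in STZ and near it in ob/ob, but several of these probe sets share a gene. Counted by gene, at the representative probe set defined below, 2 of 31 members (6.45%) stood apart in each model. The shares of all genes were 8.51% in STZ and 12.03% in ob/ob. The member share by gene was thus below the background in both models. With the deposited arrays centred on their medians the ob/ob count of member probe sets was 2, and without the array ob/ob 5 it was 3.

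The differences were small and tightly bounded. Each gene was taken at a representative probe set, its brightest one, except that a probe set of the _x_at kind stood in only for a gene lacking any other kind. Over the 31 genes the log2 fold change against control ran from -0.23 to 0.088 in STZ and from -0.18 to 0.18 in ob/ob. The median was -0.018 in STZ (10 genes higher, 21 lower) and -0.019 in ob/ob (9 higher, 22 lower), beside medians of 0.0044 and 0.0053 over all 7990 genes tested. Both comparisons use the same 6 control arrays. The 95% interval lay within 1.25-fold of control in either direction for 29 of 31 members in STZ and 28 of 31 in ob/ob, against 74.3% and 69.6% of all genes. The exceptions were Hk2 and Pdk3 in both models, and Dlst in ob/ob. Over all 58 member probe sets the interval was that narrow for 51 in each model, so other probe sets of some genes were less tightly bounded. The shares of all probe sets tested were 72.7% in STZ and 67.3% in ob/ob. For ob/ob against STZ the interval was that narrow for 30 of 31 members, Pdk3 being the exception. Strong signals go with this precision: the median member gene lay at the 95.6th percentile of signal, and the median spread within groups was 0.10 on the log2 scale against 0.13 for all genes. These p-values and intervals measure the spread between the hypothalami on the arrays, and the number of arrays limits them. In whole tissue, fewer cells of a type and less RNA per cell cannot be told apart.

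**Figure D1:**
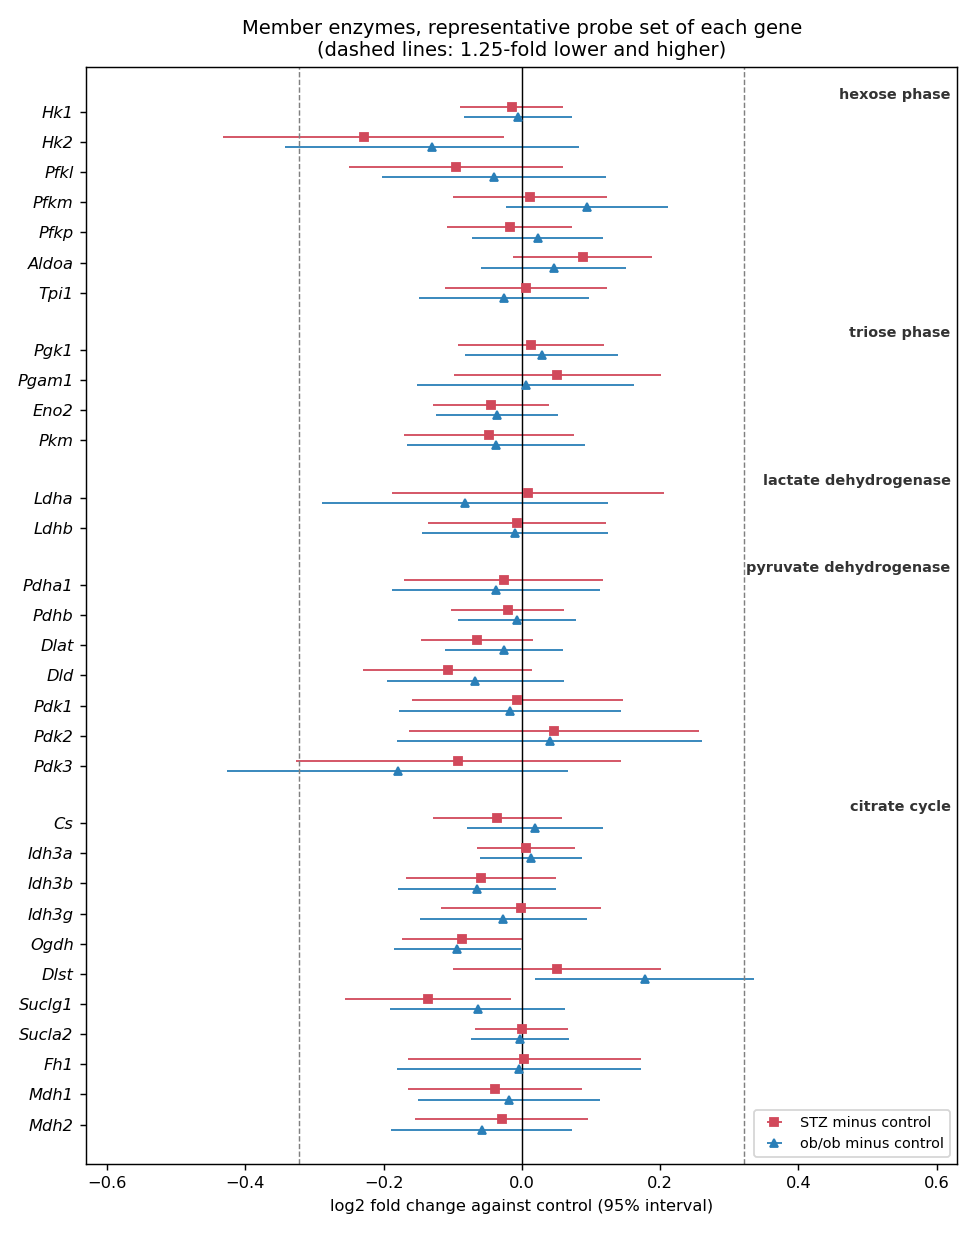
The plot gives the log2 fold change against control (x axis) of each of 31 member genes at its representative probe set, with 95% intervals from limma, for STZ (red squares) and ob/ob (blue triangles). All points lie between -0.23 and 0.18, and most intervals stay between the dashed lines at 1.25-fold lower and higher.

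In the hexose phase 7 of 8 listed genes were tested, and 0 of 15 probe sets passed in either comparison with control. The median log2 fold change of the section was -0.015 in STZ (3 genes higher, 4 lower) and -0.0052 in ob/ob (3 higher, 4 lower). Hk2, the insulin-regulated hexokinase of muscle and fat, which is a minor form in brain, had the smallest p of the section's representative probe sets in STZ. Its signal ran from 468 to 582 in the controls (median 556) and from 391 to 499 in STZ (median 484). In the ob/ob arrays 1 to 5 it was 470.5, 517, 527, 417 and 547. All 6 STZ arrays lay below the control mean, and the groups overlapped at control 4, the lowest control array. The log2 fold change was -0.23 ± 0.097 (SE) in STZ, with an unadjusted p of 0.0291 and an adjusted p of 0.534, and -0.13 ± 0.10 in ob/ob (adjusted p = 0.659). Hk2 was also the dimmest member, at the 43.0th percentile of signal.

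Hk1, the main hexokinase of brain, had 2 probe sets that gave unlike values. The brighter one averaged 8973 for controls, 8882 for STZ and 8941 for ob/ob, a log2 fold change of -0.015 ± 0.036 in STZ. The other averaged 3882, 3429 and 3829, with -0.18 ± 0.078 in STZ (adjusted p = 0.548) and -0.02 ± 0.082 in ob/ob (adjusted p = 0.950). The brighter probe set had the narrower interval, from -0.089 to 0.06.

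Phosphofructokinase commits fructose 6-phosphate to glycolysis, and its muscle (Pfkm), liver (Pfkl) and platelet (Pfkp) subunits are all made in brain. Among the representative probe sets of the section, Pfkm had the smallest p in ob/ob. Its signal was 6952 to 8292 in controls (median 7274), 6997 to 8084 in STZ (median 7542), and 7064, 8416, 8062, 7744 and 8588 in the ob/ob arrays 1 to 5. Thus 4 of 5 ob/ob arrays lay above the control mean and ob/ob 1 below it, with overlapping groups. This gave a log2 fold change of 0.094 ± 0.056 in ob/ob (adjusted p = 0.536) and 0.012 ± 0.053 in STZ (adjusted p = 0.975). Pfkl gave -0.04 ± 0.078 at its brighter probe set in ob/ob and 0.11 ± 0.051 at the other (adjusted p = 0.398). Pfkp gave 0.023 ± 0.046 in ob/ob at its brighter probe set, and -0.056 when the level of neighbouring-region markers described further on was added to the model. The other Pfkp probe set gave -0.12 ± 0.13 in ob/ob (adjusted p = 0.765) and -0.20 ± 0.12 in STZ (adjusted p = 0.696).

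Aldoa, the aldolase that cleaves fructose 1,6-bisphosphate, was singled out after its values were seen, because it had the smallest adjusted p of all members in both comparisons. Its 4 probe sets are all of the _x_at kind, in which some probes may also bind other transcripts, and they measure 1 gene and so are not independent. At the dimmest probe set the signal was 6696 to 7726 in controls (median 7110), 7322 to 8928 in STZ (median 8236), and 7217, 7240, 8444, 8539 and 8809 in the ob/ob arrays 1 to 5. All 6 STZ arrays and all 5 ob/ob arrays lay above the control mean, but STZ 6 and the arrays ob/ob 1 and 2 fell within the control range. Its log2 fold change was 0.19 ± 0.058 in STZ (adjusted p = 0.353) and 0.16 ± 0.060 in ob/ob (adjusted p = 0.282).

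The second brightest Aldoa probe set read 12724 to 13535 in controls (median 12968), 12587 to 15267 in STZ (median 14646), and 13402, 13605, 15162, 15151 and 15508 in ob/ob. STZ 6 was below every control array and the other STZ arrays were above all of them. It had log2 fold changes of 0.14 ± 0.048 in STZ (adjusted p = 0.430) and 0.16 ± 0.050 in ob/ob (adjusted p = 0.212). The other probe sets of Aldoa gave 0.088 and 0.12 in STZ and 0.046 and 0.16 in ob/ob, the lowest of each pair at the brightest probe set. With the neighbouring-region marker level in the model, the dimmest probe set gave 0.17 in STZ (adjusted p = 0.515) and 0.13 in ob/ob (adjusted p = 0.743).

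**Figure D2:**
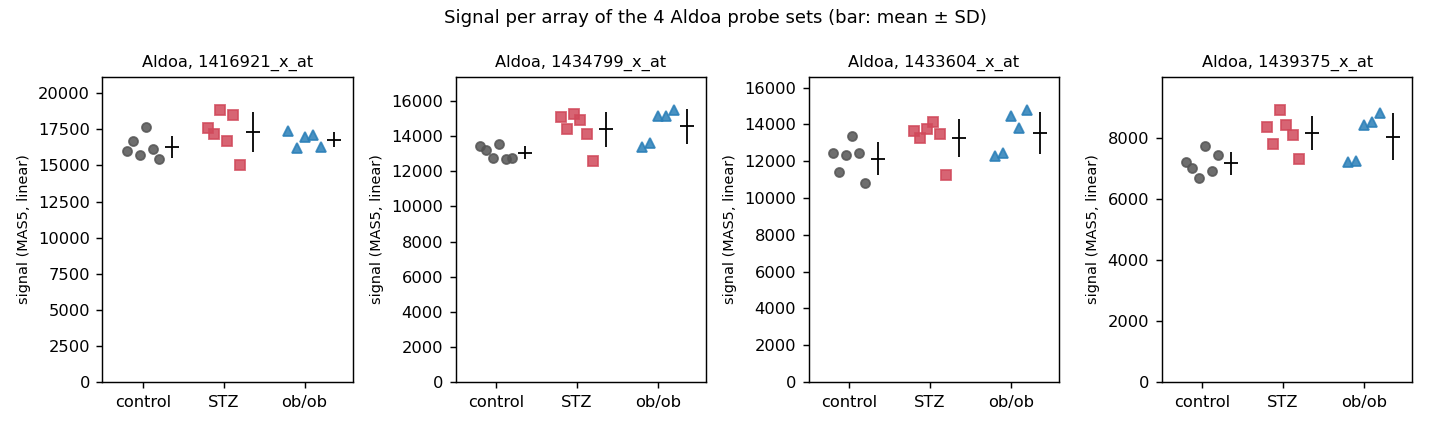
Each panel plots the MAS5 signal (y axis, linear, from 0) of 1 of the 4 Aldoa probe sets in every control, STZ and ob/ob array, with the mean and SD of each group beside the points. Group means of STZ and ob/ob lie above the control mean in all 4 panels, and in each panel the groups overlap.

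Tpi1, the isomerase that interconverts both triose phosphates, gave 0.0056 ± 0.056 in STZ and -0.026 ± 0.059 in ob/ob. Its ob/ob sign depended on the probe set, since the other 2 gave 0.049 and 0.033.

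In the triose phase 4 of 6 listed genes could be tested, and 0 of 6 probe sets passed. The section median was -0.016 in STZ (2 genes higher, 2 lower) and -0.015 in ob/ob (2 higher, 2 lower). Gapdh, which oxidises glyceraldehyde 3-phosphate, was read through the control probe sets for the 5′, middle and 3′ parts of its transcript. The 3′ set averaged 24793 in controls, 24891 in STZ and 24070 in ob/ob. Its log2 difference from control was 0.0057 in STZ and -0.043 in ob/ob (exact two-sided permutation p = 0.894 and 0.422, and 0.894 and 0.724 after adjustment over 12 tests). The middle set averaged 30625, 30591 and 29834 and the 5′ set 33248, 33027 and 32041. The log2 ratio of 3′ to 5′ signal, a measure of RNA integrity, was -0.42 in controls and -0.41 in both models.

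Eno2, the neuronal enolase, had the smallest p of this section's representative probe sets in both comparisons. Its signal was 14652 to 16882 in controls (median 14909), 13939 to 15810 in STZ (median 14736) and 14216 to 15403 in ob/ob (median 15180). The groups overlapped over most of their range. The log2 fold change was -0.045 ± 0.040 in STZ (adjusted p = 0.821) and -0.036 ± 0.042 in ob/ob (adjusted p = 0.790). Pkm, pyruvate kinase, gave -0.048 ± 0.059 and -0.037 ± 0.062, and Pgam1, the mutase before enolase, gave 0.051 ± 0.072 and 0.0054 ± 0.075.

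Pgk1, phosphoglycerate kinase, whose promoter is printed above, gave 0.014 ± 0.051 in STZ and 0.029 ± 0.053 in ob/ob at its representative probe set. A brighter probe set of the _x_at kind gave -0.12 ± 0.052 in ob/ob (unadjusted p = 0.0354, adjusted p = 0.375). There the signal was 22560 to 28004 in controls and 20847 to 22828 in ob/ob, and all 5 ob/ob arrays lay below the control mean. The probe sets of this gene thus differed in sign in ob/ob.

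Lactate dehydrogenase is a tetramer of Ldha, the form typical of glycolytic tissue, and Ldhb, the form of oxidative tissue. None of their 5 probe sets passed. At the representative probe sets Ldhb had the smaller p in STZ and was nearly level between groups, with 14345 in controls, 14274 in STZ and 14245 in ob/ob. Its log2 fold change was -0.0072 ± 0.061 in STZ (adjusted p = 0.987) and -0.01 ± 0.064 in ob/ob (adjusted p = 0.969). Ldha, whose printed promoter stretch held 5 matches, had the smaller p in ob/ob. Its signal was 6220 to 7346 in controls (median 6863), 5933 to 7632 in STZ (median 6952), and 6444, 6800, 7665, 7310 and 4492 in the ob/ob arrays 1 to 5. Of the ob/ob arrays only ob/ob 5 lay below every control array, and STZ 6, at 5933, did so too. The log2 fold change was 0.0087 ± 0.094 in STZ (adjusted p = 0.989) and -0.082 ± 0.099 in ob/ob (adjusted p = 0.8002), and without ob/ob 5 it was 0.048.

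The pyruvate dehydrogenase section held 7 genes and 11 tested probe sets, of which 0 passed. The median log2 fold change was -0.026 in STZ and -0.026 in ob/ob, with 6 of 7 genes lower than control in each. The mean log2 signal of the 7 genes per array, relative to the control mean, ran from -0.074 to 0.058 in controls, from -0.092 to 0.0075 in STZ and from -0.094 to 0.022 in ob/ob. All but 1 array of each model lay below the control mean, and the ranges overlapped.

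Among the catalytic subunits, Dld, the dihydrolipoamide dehydrogenase that this complex shares with the oxoglutarate dehydrogenase complex, had the smallest p of the section's representative probe sets in STZ. Its signal was 3009 to 3888 in controls (median 3391), 2915 to 3279 in STZ (median 3150), and 3545, 2938, 3238, 3277 and 3135 in the ob/ob arrays 1 to 5. All 6 STZ arrays lay below the control mean but within or just under the control range. Dld thus gave -0.11 ± 0.059 in STZ (adjusted p = 0.658) and -0.067 ± 0.061 in ob/ob (adjusted p = 0.713). Dlat, the acetyltransferase core, gave -0.065 ± 0.039 in STZ and -0.026 ± 0.041 in ob/ob. Pdha1 and Pdhb, the subunits of the decarboxylase, gave -0.026 ± 0.069 and -0.021 ± 0.039 in STZ and -0.037 ± 0.072 and -0.0075 ± 0.041 in ob/ob. The second Pdha1 probe set gave -0.12 ± 0.056 in ob/ob (adjusted p = 0.424).

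The kinases Pdk1, Pdk2 and Pdk3 phosphorylate the complex and switch it off. At the representative probe sets Pdk3 had the smallest p of the section in ob/ob. Its signal was 748 to 973 in controls (median 805), 647 to 925 in STZ (median 786), and 806, 695, 579.7, 716 and 921 in the ob/ob arrays 1 to 5. The ob/ob arrays spanned nearly the whole control range and beyond its lower end. Pdk3 gave a log2 fold change of -0.18 ± 0.12 in ob/ob (adjusted p = 0.590) and -0.092 ± 0.11 in STZ (adjusted p = 0.869). With the neighbouring-region marker level in the model the ob/ob value was -0.055. Pdk2, a widely expressed form, gave 0.047 ± 0.10 in STZ and 0.04 ± 0.11 in ob/ob. Pdk1 gave -0.0065 ± 0.073 and -0.017 ± 0.077 at its brighter probe set, while its other probe set gave 0.15 ± 0.10 and 0.17 ± 0.11 (adjusted p = 0.757 and 0.562).

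**Figure D3:**
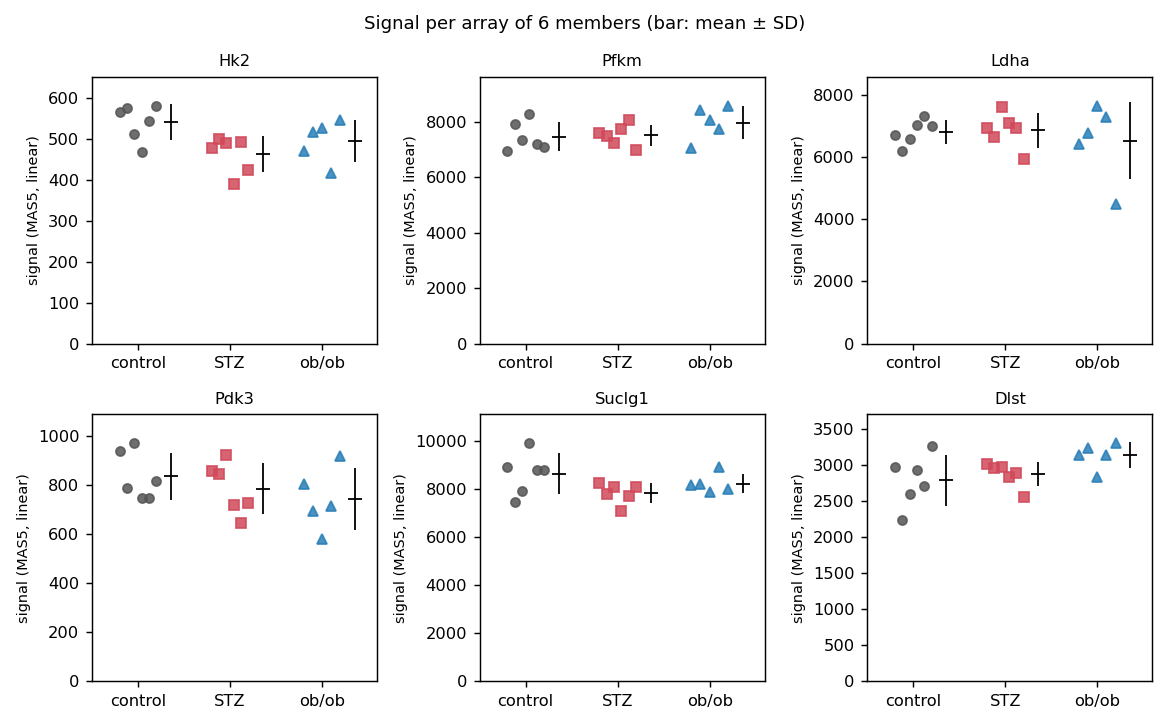
The panels plot the MAS5 signal (y axis, linear, from 0) of Hk2, Pfkm, Ldha, Pdk3, Suclg1 and Dlst in every array by group, with group mean and SD. The groups overlap in all 6 panels, and the array ob/ob 5 lies apart for Ldha at 4492.

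The citrate cycle section held 11 genes and 21 tested probe sets, of which 0 passed. Its median log2 fold change was -0.029 in STZ and -0.019 in ob/ob, with 3 genes higher and 8 lower in each. Suclg1, the subunit shared by both forms of succinyl-CoA ligase, had the smallest p of the representative probe sets in STZ. Its signal was 7468 to 9923 in controls (median 8794), 7070.5 to 8264 in STZ (median 7928), and 8187, 8226, 7865, 8908 and 7986 in the ob/ob arrays 1 to 5. All 6 STZ arrays lay below the control mean, and they overlapped with control 2 and control 3. Suclg1 gave -0.14 ± 0.058 in STZ (unadjusted p = 0.0282, adjusted p = 0.532) and -0.064 ± 0.060 in ob/ob (adjusted p = 0.725). Its partner Sucla2, the ATP-forming subunit, averaged 8432 in controls, 8429 in STZ and 8416 in ob/ob, with log2 fold changes of -0.00036 ± 0.032 and -0.0026 ± 0.034.

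Dlst, the succinyltransferase core of the oxoglutarate dehydrogenase complex, had the smallest p in ob/ob. Its signal was 2233 to 3262 in controls (median 2822), 2557 to 3011 in STZ (median 2925), and 3134, 3240.2, 2837, 3143 and 3303 in the ob/ob arrays 1 to 5. All 5 ob/ob arrays lay above the control mean, but control 1, control 4 and control 6 lay above the lowest of them. The log2 fold change was 0.18 ± 0.076 in ob/ob (unadjusted p = 0.0294, adjusted p = 0.353) and 0.051 ± 0.072 in STZ (adjusted p = 0.892). A second, dim probe set of Dlst gave 0.22 ± 0.12 in ob/ob (adjusted p = 0.511) and 0.22 ± 0.12 in STZ (adjusted p = 0.654).

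Ogdh, the decarboxylase of the same complex, was named after its values were seen, for its place beside Dlst in the same complex. Its signal was 4667 to 5301 in controls (median 4883), 4460 to 4782 in STZ (median 4667), and 4277, 4636, 4849.8, 4559 and 4727 in the ob/ob arrays 1 to 5. Every STZ and every ob/ob array lay below the control mean, with overlap in the lower part of the control range. In log2 fold change Ogdh gave -0.087 ± 0.042 in STZ (adjusted p = 0.613) and -0.093 ± 0.044 in ob/ob (adjusted p = 0.408). Ogdh and Dlst thus had opposite signs in ob/ob, while the third enzyme, Dld, was at -0.067.

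The remaining members of the cycle stayed close to the controls. Cs, citrate synthase, which joins acetyl-CoA to oxaloacetate, gave -0.036 ± 0.045 in STZ and 0.019 ± 0.047 in ob/ob. A dimmer Cs probe set gave -0.095 ± 0.036 in STZ (adjusted p = 0.475), with all 6 STZ arrays below the control mean. Idh3a, Idh3b and Idh3g, the subunits of mitochondrial NAD-dependent isocitrate dehydrogenase, gave 0.0061, -0.059 and -0.0013 in STZ and 0.013, -0.065 and -0.027 in ob/ob. Fh1, fumarase, gave 0.0037 ± 0.081 in STZ and -0.0041 ± 0.085 in ob/ob. Mdh1, the cytosolic malate dehydrogenase, gave -0.038 ± 0.060 and -0.019 ± 0.063. Mdh2, the mitochondrial form, gave -0.029 ± 0.060 and -0.058 ± 0.063, and its second probe set gave -0.16 ± 0.073 in STZ (adjusted p = 0.594).

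Single arrays moved many members together. Control 4 was the highest control array for 20 of 31 members, or 64.5%, where it was highest for 16.6% of all genes. In the mean log2 signal of all 31 members relative to the control mean, control 4 stood at 0.091 and the other controls between -0.046 and 0.02. STZ 2 and STZ 6 were the lowest STZ arrays for 13 and 11 members (41.9% and 35.5%, against 12.3% and 19.8% of all genes). The STZ arrays ranged from -0.091 to 0.015 and the ob/ob arrays from -0.049 to 0.0023, and both overlapped with the other controls. Without control 4 the median over members turned to 0.0031 in STZ and 0.005 in ob/ob.

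**Figure D4:**
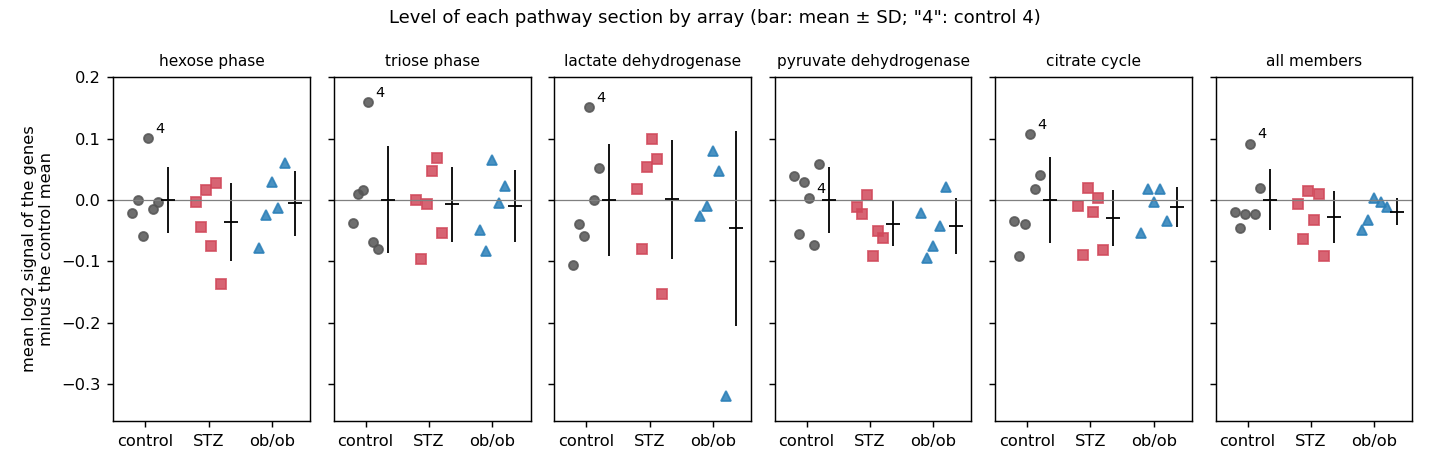
Each panel plots, for 1 pathway section and for all 31 members, the mean log2 signal of the genes in an array minus the control mean (y axis), with group mean and SD. Control 4, marked 4, is the highest control array in every panel but that of pyruvate dehydrogenase, and all groups overlap.

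Where a gene had several tested probe sets (17 genes), they shared a sign for 11 genes in STZ, 8 in ob/ob and 6 in ob/ob against STZ. The widest disagreement was a range of 0.18 on the log2 scale for Pfkp in STZ and of 0.19 for Pdk1 in ob/ob, larger than the size of most differences between groups.

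Setting ob/ob directly against STZ tests whether the models differ from each other. The log2 difference ran from -0.091 (Ldha) to 0.13 (Dlst) over the 31 members, with a median of 0.0069 (16 higher, 15 lower) beside 0.0022 over all genes. The smallest adjusted p of a member was 0.9996. By section the median was 0.04 in the hexose phase, 0.0095 in the triose phase, -0.047 for lactate dehydrogenase, -0.0062 for pyruvate dehydrogenase and -0.0023 in the citrate cycle. Hk2 was 0.098 ± 0.10 higher and Suclg1 0.072 ± 0.060 higher in ob/ob, each within the spread between arrays. Signals of no member gene were separate between any 2 groups in its representative probe set, where 0.501% of genes were separate between STZ and control, 1.75% between ob/ob and control and 0.501% between ob/ob and STZ.

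Other genes of these pathways were taken from a list of 66 genes, of which 37 were measured, and 0 of them passed in any comparison. The median log2 fold change was 0.0065 in STZ (19 higher, 18 lower) and 0.02 in ob/ob (21 higher, 16 lower). Among other glycolytic genes (6 of 18 measured), Bpgm, which makes 2,3-bisphosphoglycerate, gave 0.13 ± 0.056 in STZ (adjusted p = 0.555). Adpgk, an ADP-dependent glucokinase, gave -0.32 ± 0.13 in ob/ob (adjusted p = 0.314). Me1, the cytosolic malic enzyme, had the smallest p of 6 pyruvate and anaplerosis genes, with -0.12 ± 0.062 in STZ (adjusted p = 0.622) and -0.15 ± 0.065 in ob/ob (adjusted p = 0.366). Of 8 other citrate cycle genes, the succinate dehydrogenase subunit Sdhc gave -0.14 ± 0.049 in STZ (adjusted p = 0.443) and Idh2, the mitochondrial NADP-dependent isocitrate dehydrogenase, 0.11 ± 0.066 in ob/ob (adjusted p = 0.538).

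Gpd2, the mitochondrial enzyme of the glycerol phosphate shuttle that brings cytosolic reducing equivalents to the respiratory chain, had the smallest p of 5 shuttle genes. It gave -0.14 ± 0.054 in STZ (adjusted p = 0.500) and -0.15 ± 0.057 in ob/ob (adjusted p = 0.295). In the pentose phosphate pathway, which branches off before phosphofructokinase (6 of 7 genes measured), Pgls gave 0.18 ± 0.091 in STZ (adjusted p = 0.617) and Pgd 0.16 ± 0.069 in ob/ob (adjusted p = 0.354). Of 6 glycogen genes, Phka1, a regulatory subunit of phosphorylase kinase, gave 0.17 ± 0.079 in STZ (adjusted p = 0.574) and 0.22 ± 0.083 in ob/ob (adjusted p = 0.288).

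Of 8 listed markers of hypothalamic neurons, 5 were measured (Pomc, Avp, Oxt, Hcrt and Sim1), Nr5a1 was under the signal filter, and Pmch and Agrp had no probe set with 1 symbol. Their mean log2 signal had a median of 12.005 in controls against 11.82 in STZ and 11.71 in ob/ob. Of the 5 markers, 4 were lower and 1 was higher in each model, with log2 fold changes up to 0.18 in STZ and 0.19 in ob/ob. At an unadjusted p under 0.05 in limma there was 1 marker in STZ and 3 in ob/ob, all lower. Pomc, the precursor of an appetite-suppressing peptide, fell in both models, with log2 fold changes of -0.65 ± 0.12 in STZ (adjusted p = 0.0384) and -0.75 ± 0.12 in ob/ob (adjusted p = 0.0121). Hcrt, the orexin precursor, gave -0.50 ± 0.11 in ob/ob without overlap with the controls (adjusted p = 0.0687) and -0.15 ± 0.11 in STZ (adjusted p = 0.755). The part of these neurons in the members' values was not tested. Genes that mark the neighbouring striatum, cortex and thalamus were also measured, 11 of 22 listed. All 11 were higher in ob/ob than in controls. In STZ the 5 striatum and 3 thalamus markers were higher, but of the 3 cortex markers 1 was higher and 2 were lower. The mean log2 signal of the 11 markers was 10.27 to 10.86 in controls, 10.52 to 10.89 in STZ and 10.82 to 11.06 in ob/ob. The ob/ob mean was 0.32 above the control mean (exact two-sided permutation p = 0.0173, 0.208 after adjustment over 12 tests) and the STZ mean 0.16 above it (p = 0.152, adjusted 0.606). With this level as a covariate, the member probe sets at an unadjusted p under 0.05 numbered 4 in STZ and 1 in ob/ob, in place of 7 and 7, and 0 passed after adjustment. Since the level itself differed between the groups, the covariate also takes up part of the group difference. The cause of the lower counts was not tested. The 8 neuronal markers had a median level of 12.95 in controls against 12.94 in STZ and 12.93 in ob/ob. For 8 astrocyte markers these levels were 11.97, 11.94 and 11.96. Single astrocyte markers differed more, with log2 fold changes from -0.26 to 0.19 in STZ (4 higher, 4 lower). In ob/ob they ran from -0.29 to 0.10 (6 higher, 2 lower). In each model 1 of them, lower, had an unadjusted p under 0.05 in limma (adjusted p = 0.134 in STZ and 0.0558 in ob/ob). The 7 oligodendrocyte markers measured had median levels of 13.25, 13.26 and 13.33, and 6 endothelial and pericyte markers 9.97, 9.97 and 9.92. The mean level of the 7 microglial markers measured ran from 11.21 to 11.41 in controls, from 11.14 to 11.26 in STZ and from 10.99 to 11.27 in ob/ob. Of these 7 microglial markers, 5 were lower in STZ and 7 in ob/ob. The part of these cell types in the results was not tested. The choroid plexus transcript Ttr, the 1 of 5 such markers measured, gave 2.35 ± 0.49 in ob/ob (adjusted p = 0.0558). Its log2 signal was uneven in ob/ob, from 9.88 to 13.40 with a median of 10.01, against 8.13 to 9.25 in controls (median 8.85). The pituitary and blood markers with a probe set (4 of 5 and 2 of 4) were all under the signal filter.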

How the data were processed

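The arrays were Affymetrix mouse arrays, 1 per hypothalamus. The values deposited by the authors are linear intensity, summarised to probe sets with MAS5 per the submitters' processing notes. MAS5's version, scaling target and detection calls are not given in the sources used here. The 2% trimmed mean was 1500.4 on every array, so the arrays share a scale, and such scaling hides any change common to most transcripts. Array medians ran from 637.6 to 707.05, and correlations between arrays from 0.954 to 0.972.

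Signals were taken as log2 without a pseudocount. The 64 control probe sets and those below the 40th percentile of mean log2 signal (a signal of 435) were left out. One model of 3 group means was fitted to all 17 arrays with limma 3.58.1 in R 4.3.3 (lmFit, eBayes with a trend). P-values were adjusted by Benjamini-Hochberg over 13576 probe sets, with a threshold of 0.05. A gene stood for its brightest probe set, with _x_at only where there was no other. Gene symbols came from the platform annotation. The method was tested on simulated data. Gapdh ratios and marker levels were compared with exact permutation tests.

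The members, pathway lists and markers were chosen with earlier results of these data known. Named in full were, per section and comparison with control, the member with the smallest p at its representative probe set, and in each other list the gene with the smallest p. Alternatives varied the scaling, filter, pseudocount, spread estimate, samples, pairing and a marker covariate. The titles give no batch, date or pairing.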

Additional observations from a re-analysis of the deposited data

Results flagged for a closer look

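In 5 of 93 groups of values (31 genes in 3 groups), 1 array lay farther from the others than Dixon's 95% limit allows, a rate that chance gives in about 1 of 20 groups. Hk1 was lowest in ob/ob 1, at 8549.8 against 8984 to 9115 in the other ob/ob arrays. Pfkl was lowest in the same array, at 4081.5 against 4718 to 4973. Tpi1 was highest in control 4, at 13104.8 against 10368 to 11116, and lowest among the ob/ob arrays in ob/ob 2, at 9671.4 against 11062 to 11525. Idh3g was lowest in control 2, at 6718.6 against 7476 to 7861. No member differed between STZ and ob/ob by the direct test at an adjusted p under 0.05 (limma, 0 probe sets, 0 at an unadjusted p under 0.05).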

How the results depend on the processing

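The count of member probe sets called by limma was 0 under all 64 alternative values (scaling, filter, pseudocount, samples in the fit, spread estimate, replicate block, marker covariate and each array left out). With the replicate block, which gives numbered arrays of different groups a shared term, the count was 0 in each comparison. Arrays with the same number shared only that number: the correlations of their deviations ran from -0.082 to 0.063 between STZ and control, from -0.11 to 0.11 between ob/ob and control and from -0.17 to 0.093 between ob/ob and STZ, and 1 of 6, 0 of 5 and 2 of 5 correlated best with their own number. Counts at an unadjusted p under 0.05 ranged from 4 to 10 in STZ, from 1 to 8 in ob/ob and from 0 to 2 between the models. In ob/ob the count was 2 with arrays centred on their medians, 4 without a trend, 4 without control 2 and 3 without ob/ob 5. The cause was not tested. All 402 alternative values of section medians and 2489 of 2490 of the log2 fold changes moved by less than 1 SD within groups, with 59 and 215 changes of sign. That limit is a weak test of stability. The median SD of a member was 0.10, while the median absolute log2 fold change was 0.036 in each model. Settings that change only the filter or the spread estimate also leave the fold change of a probe set as it is. Hk2 and Pdk3 dropped out under the 60th percentile filter. The neighbouring-region marker level of ob/ob minus STZ was 0.156 with all arrays (exact permutation p = 0.0758, adjusted p = 0.455). With 1 array left out this difference ran from 0.112 to 0.187. The unadjusted permutation p ran from 0.0317 to 0.171 over the alternatives. Its smallest value came without STZ replicate 2, where the difference was largest.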
